A study of Mus musculus with 18 samples.

Results

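The comparison is that of colon epithelium from wild-type (WT) mice given dextran sulphate sodium (DSS), a polymer that damages the gut lining and causes colitis, with colon epithelium from untreated WT mice. It uses 9 of the 18 arrays of the series, chosen by their titles: DSS_WT 1, 2, 3, 4 and 4R, and Naive_WT 9, 10, 11 and 12. Arrays 4 and 4R were averaged, so that each group has 4 samples, 8 of the 16 in the series. The other 8 samples came, with and without DSS, from Mbd2KO mice, which do not have Mbd2, a protein that binds methylated CpG sites. Per the labels and the study's methods, all mice were on the C57BL/6 background and 8 to 22 weeks old, the DSS_WT mice drank 2% DSS for 6 days, and the Naive_WT mice received none. A replicate pooled 1 to 5 mice per the design text of the series and up to 10 per the study's methods, and 3 separate experiments were run that the labels do not tie to arrays. The p-values below therefore measure the spread between these samples, which can include differences between experiments. The cells were sorted as EpCAM+CD45-CD3-F4/80-, that is, positive for an epithelial surface protein and negative for a general leukocyte, a T cell and a macrophage protein, with a purity of at least 95%. Of 45281 probes, each 50 bases long, 21938 were detected on at least 4 arrays and tested, and they stood for 15757 genes.

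The colon epithelium renews itself from stem cells in the crypts, which give rise to absorptive colonocytes, mucus-secreting goblet cells, enteroendocrine cells and tuft cells. When microbes reach the epithelium, interleukin-22 and related cytokines act through the transcription factor Stat3 and raise secreted lectins of the Reg family, while Toll-like receptors and NF-kappaB raise chemokines that draw in leukocytes. Interferon-gamma acts through transcription factors such as Irf1 and raises guanylate-binding proteins, the tryptophan-degrading enzyme Ido1 and the antigen-presenting MHC molecules. These factors bind short DNA motifs in the promoters of their targets.

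The promoters of 5 genes with strong rises, taken from RefSeq (GRCm38.p6) as the 250 bases before the start, are shown because Reg lectins and interferon-gamma targets were among the largest changes and each of these promoters held a motif of one of the factors. Motifs were searched on both strands: the gamma-activated site bound by Stat factors (TTCNNNGAA), its special case for Stat3 (TTCCNGGAA), the interferon regulatory factor element (GAAANNGAA), the kappaB site (GGGANTTTC) and the hypoxia response element (GACGTG). Capitals mark each match, on whichever strand it lies. The Reg3b promoter, chr6:78370635-78370884 on the plus strand, held a gamma-activated site 129 to 121 bases before the start. The Reg3g promoter, chr6:78468875-78469124 on the minus strand, held a kappaB site 141 to 133 bases before the start.
Reg3b: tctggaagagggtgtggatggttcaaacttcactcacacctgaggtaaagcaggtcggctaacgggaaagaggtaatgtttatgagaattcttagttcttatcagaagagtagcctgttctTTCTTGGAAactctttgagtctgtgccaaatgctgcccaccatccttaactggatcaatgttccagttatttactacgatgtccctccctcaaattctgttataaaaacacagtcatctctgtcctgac
Reg3g: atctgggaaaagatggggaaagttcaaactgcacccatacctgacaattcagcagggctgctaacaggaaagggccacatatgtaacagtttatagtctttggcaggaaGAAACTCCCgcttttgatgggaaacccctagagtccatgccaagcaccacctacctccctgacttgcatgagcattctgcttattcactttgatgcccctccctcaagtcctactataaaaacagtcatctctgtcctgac
The Cxcl9 promoter, chr5:92328080-92328329 on the minus strand, held an interferon regulatory factor element and a kappaB site between 175 and 146 bases before the start. The Gbp2 promoter, chr3:142620413-142620662 on the plus strand, held the interferon element 58 to 50 bases before the start. The Igtp promoter, chr11:58199306-58199555 on the plus strand, held a gamma-activated site followed by the interferon element, 45 to 26 bases before the start.
Cxcl9: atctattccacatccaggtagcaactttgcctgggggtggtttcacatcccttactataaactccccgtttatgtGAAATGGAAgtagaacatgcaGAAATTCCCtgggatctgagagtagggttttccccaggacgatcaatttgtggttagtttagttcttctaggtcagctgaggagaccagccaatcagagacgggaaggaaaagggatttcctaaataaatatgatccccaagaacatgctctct
Gbp2: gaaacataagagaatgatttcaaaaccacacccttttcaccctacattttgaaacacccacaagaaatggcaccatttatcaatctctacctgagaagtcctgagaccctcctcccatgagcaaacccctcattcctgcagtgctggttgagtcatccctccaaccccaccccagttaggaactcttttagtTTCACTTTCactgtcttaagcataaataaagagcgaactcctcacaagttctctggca
Igtp: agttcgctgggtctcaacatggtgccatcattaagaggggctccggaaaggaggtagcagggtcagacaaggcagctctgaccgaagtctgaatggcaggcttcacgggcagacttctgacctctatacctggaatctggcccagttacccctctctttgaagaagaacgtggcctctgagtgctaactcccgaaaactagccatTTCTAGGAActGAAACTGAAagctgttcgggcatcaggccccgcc
The interferon regulatory factor element was in 13 of 22 promoters (59.1%) of the interferon-gamma response list, in 30 of 211 promoters (14.2%) of genes called higher after DSS, in 3 of 67 (4.48%) of those called lower and in 761 of 12020 (6.33%) of all tested genes. The kappaB site was in 3.32% of promoters of genes called higher, 2.99% of those called lower and 0.882% of all tested, and in 3 of 21 (14.3%) for the list of secreted antimicrobials, of whose promoters 2 held the gamma-activated site (9.52%), 1 the interferon element (4.76%) and none the Stat3 site. The gamma-activated site was in 9.48%, 5.97% and 6.14%, and in 9 of 22 (40.9%) for the interferon-gamma list. The Stat3 site was in 2.37% of promoters called higher, none of the 67 called lower and 1.07% of all tested, and the hypoxia element in 5.21%, 7.46% and 7.44%. The interferon-gamma list was made of known targets of these factors, so its shares are a description of the list. A match is likewise a description of the letters in these windows, not a mapped binding site.

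The 9 arrays were of like quality. Between 19762 and 20618 probes were detected on the DSS_WT arrays (43.6% to 45.5%) and between 19614 and 20392 on the Naive_WT arrays (43.3% to 45%). The median signal was 121.8 to 132.3 intensity units on DSS_WT and 111.8 to 120 on Naive_WT arrays, and the mean of the negative controls was 113.4 to 121.7 against 104.5 to 111.4, so the background did not overlap between the groups before it was subtracted. After normalization, the SD of the log2 difference was 0.327 to 0.482 between DSS_WT samples, 0.3525 to 0.441 between Naive_WT samples and 0.435 to 0.624 between samples of different groups. On the first principal component (43.1% of the variance) the DSS_WT samples lay at -14.6, -37.6, -32.4 and -35.2 and the Naive_WT samples at 26.2, 25.6, 27.8 and 40.2. The second component (17.5%) set DSS_WT 2 apart at -38.7. In this and every list of values below, samples stand in the order DSS_WT 1, 2, 3, 4 and Naive_WT 9, 10, 11, 12, and levels are background-corrected, quantile-normalized log2 signals of 1 probe.

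More genes rose than fell after DSS, and the largest rises were larger than the largest falls. A probe was called when its limma adjusted p was under 0.01 and its log2 change (DSS_WT minus Naive_WT) was at least 1 in size. This was the case for 382 probes (1.74% of those tested), 294 higher (1.34%) and 88 lower (0.401%), which stood for 334 genes. By the brightest probe of each gene, 301 genes were called (1.91% of genes), 238 higher (1.51%) and 63 lower (0.4%). Of the probes called higher, 40 rose by at least 2 on the log2 scale, 8 by at least 3 and 4 by at least 4, while 5 of those called lower fell by at least 2. In 373 of the 382 the 2 groups did not overlap, as in 17% of all tested probes (8.87% with DSS_WT above and 8.1% with DSS_WT below). By a looser rule, which asks for an adjusted p under 0.05 and sets no minimum size, 2295 probes (10.5%) passed, 1253 higher (5.71%) and 1042 lower (4.75%). Below, rose and fell are used of genes that passed the looser rule and called of those that passed both thresholds, and a gene stands for its brightest probe unless another is named.

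**Figure D1:**
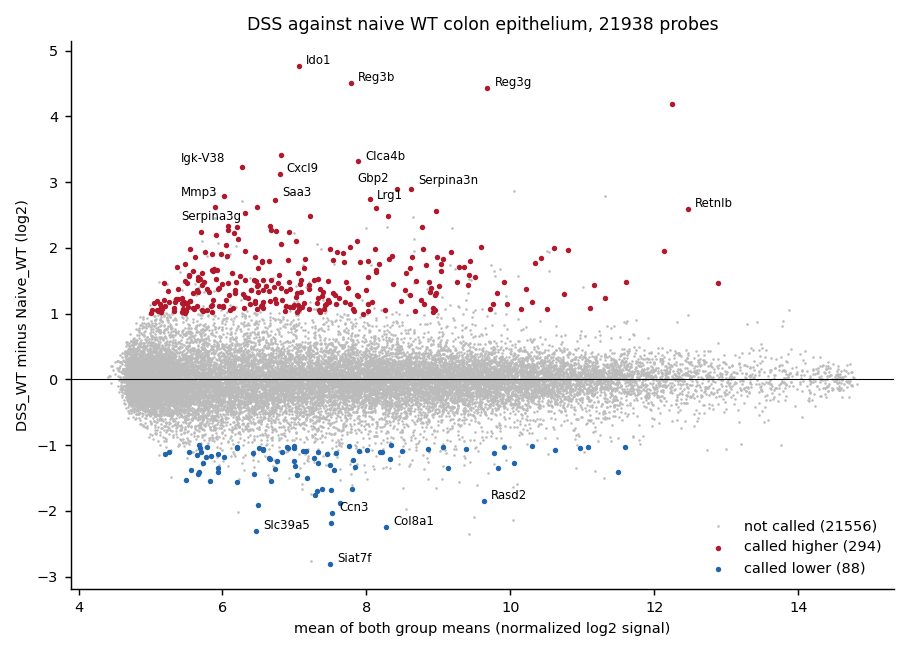
Log2 change (DSS_WT minus Naive_WT, vertical axis) of the 21938 tested probes against the mean of both groups' mean log2 signals (horizontal axis). The 294 probes called higher are red, the 88 called lower blue and the other 21556 grey. The highest points belong to Ido1, Reg3b and Reg3g, and the rises reach further from 0 than the falls.

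The split between rises and falls depended on the normalization. Quantile normalization left the median change of all genes at 0.01, whereas scaling each array to a common median moved it to 0.27 (0.24 over probes). Under the latter scaling 625 of 660 called probes were higher (94.7%), against 294 of 382 (77.0%), and 327 of the 382 were called again. By the looser rule 4904 probes were higher and 369 lower there, against 1253 and 1042. All 126 named probes that rose still passed 0.05 there. Of the 40 that fell, 21 still passed, and all 40 stayed below the median of all genes. Described falls of named probes are therefore given with their value or adjusted p under that scaling where they missed 0.05 there. Of the 85 named probes that were called, all 85 kept an adjusted p under 0.05 whichever sample was left out. Of the 81 that only passed the looser rule, 51 missed 0.05 in at least 1 such fit, and for those described the highest adjusted p is given. In 128 called genes with more than 1 tested probe, every probe was called in 29.

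Secreted antimicrobial proteins were among the lists with the highest median changes. Of 24 tested genes of this list, 13 rose and 1 fell, with a median change of 1.61, against 6.26% of all genes that rose, 4.56% that fell (10.8% in either direction) and an all-gene median of 0.01. The order of the highest lists depended on the setting: without background correction the median of the antimicrobials was 0.68, below that of MHC class II (0.84) and fibroblast genes (0.73), and with the probes of a gene averaged it was 1.20, below that of neutrophil (1.39) and macrophage genes (1.35). Reg3b and Reg3g are C-type lectins that epithelial cells secrete against bacteria. The brighter of the Reg3b probes read 14.53, 13.76, 14.56 and 14.51 with DSS and 9.82, 9.51, 11.92 and 9.36 without. The groups did not overlap, and Naive_WT 11 stood above the other naive samples. The change was 4.19 (SE 0.48, adjusted p 0.000245, limma), and the second Reg3b probe gave 4.52 (SE 0.62, adjusted p 0.000477). Reg3g read 11.90, 10.88, 12.40 and 12.42 against 6.89, 7.00, 9.13 and 6.82, with Naive_WT 11 again the highest of its group. It rose by 4.44 (SE 0.55, adjusted p 0.000318). Retnlb, a goblet cell protein that binds bacteria, read 13.63, 14.07, 13.77 and 13.60 against 11.61, 11.06, 11.46 and 10.55. Its groups did not overlap, and it rose by 2.60 (SE 0.51, adjusted p 0.00467).

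The other antimicrobials rose less or from near background. Reg1, detected on 1 of the 4 naive arrays, rose by 1.94 (adjusted p 0.000287). Reg3a was detected on none of them, so only a bound can be given: it was at least 2.76-fold higher with DSS (adjusted p 0.000464). In such bounds the mean of the DSS samples is set against the dimmest detected level of each naive array. Defb37, a defensin, rose by 1.94 (adjusted p 0.00334), Lyz1, a lysozyme, by 1.78 (adjusted p 0.000869), Slpi, a protease inhibitor, by 1.87 (adjusted p 0.00514) and Duoxa2, which matures the peroxide-making oxidase Duox2, by 1.81 (adjusted p 0.00467). Duox2 itself rose by 1.01 (adjusted p 0.0458, up to 0.133 with 1 sample left out). The metal-binding calprotectin subunits S100a8 and S100a9, which neutrophils also make in quantity, were not detected on any naive array. S100a8 read 6.42, 5.46, 8.93 and 8.38 with DSS, with DSS_WT 2 the lowest, and was at least 5.27-fold higher (adjusted p 0.0173, but 0.0565 without DSS_WT 3 and 0.0627 without DSS_WT 4). S100a9 was at least 3.76-fold higher (adjusted p 0.0295, up to 0.0929 with 1 sample left out). Lcn2, which withholds iron from bacteria, rose by 1.45 (adjusted p 0.0418, up to 0.106). Ang4, a goblet and Paneth cell ribonuclease, changed by 2.31 with an adjusted p of 0.212 and Reg4 by -1.01 with an adjusted p of 0.110. Pigr, the receptor that carries IgA into the lumen, fell by 0.74 (adjusted p 0.0133), and under common-median scaling gave -0.37 (adjusted p 0.106).

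Many acute-phase and injury genes rose as well. Of 24 tested, 14 rose, 1 fell and 10 were called higher, with a median of 0.80. Serpina3n, a secreted protease inhibitor, read 9.84, 9.55, 10.57 and 10.29 against 6.99, 7.47, 7.70 and 6.51. The lowest DSS sample lay well above the highest naive one, and the rise was 2.89 (SE 0.36, adjusted p 0.000327). Lrg1, a glycoprotein of the acute phase, read 9.34, 8.27, 9.77 and 10.29 against 6.56, 6.65, 6.85 and 6.61, with DSS_WT 2 the lowest of its group. It rose by 2.75 (SE 0.52, adjusted p 0.00372). Saa3, a serum amyloid A protein, read 7.61, 7.10, 8.88 and 8.79 against 5.77, 5.29, 4.97 and 5.42, a rise of 2.74 (SE 0.53, adjusted p 0.00432), whereas Saa1 changed by 0.11 (adjusted p 0.831). Timp1, an inhibitor of matrix proteases, rose by 2.26 (adjusted p 0.000245), Lbp, which binds lipopolysaccharide, by 1.90 (adjusted p 0.00164), and the complement components C3 and C4b by 1.75 (adjusted p 0.00214) and 1.40 (adjusted p 0.00387). Complement factor Cfb fell by 0.63 (adjusted p 0.0107), and under common-median scaling gave -0.21 (adjusted p 0.218). Among the matrix metalloproteinases, Mmp3 was not detected on naive arrays by the probe with its largest change and read 7.20, 7.24, 7.99 and 7.23 with DSS, at least 5.72-fold higher (adjusted p 0.00211). Another probe rose by 2.31, and the third, also without detection on naive arrays, was at least 2.51-fold higher. Mmp10 was at least 3.79-fold higher (adjusted p 0.00347) and Mmp13 rose by 2.04 (adjusted p 0.00537). The inducible cyclooxygenase Ptgs2 changed by 0.54 (adjusted p 0.0523).

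**Figure D2:**
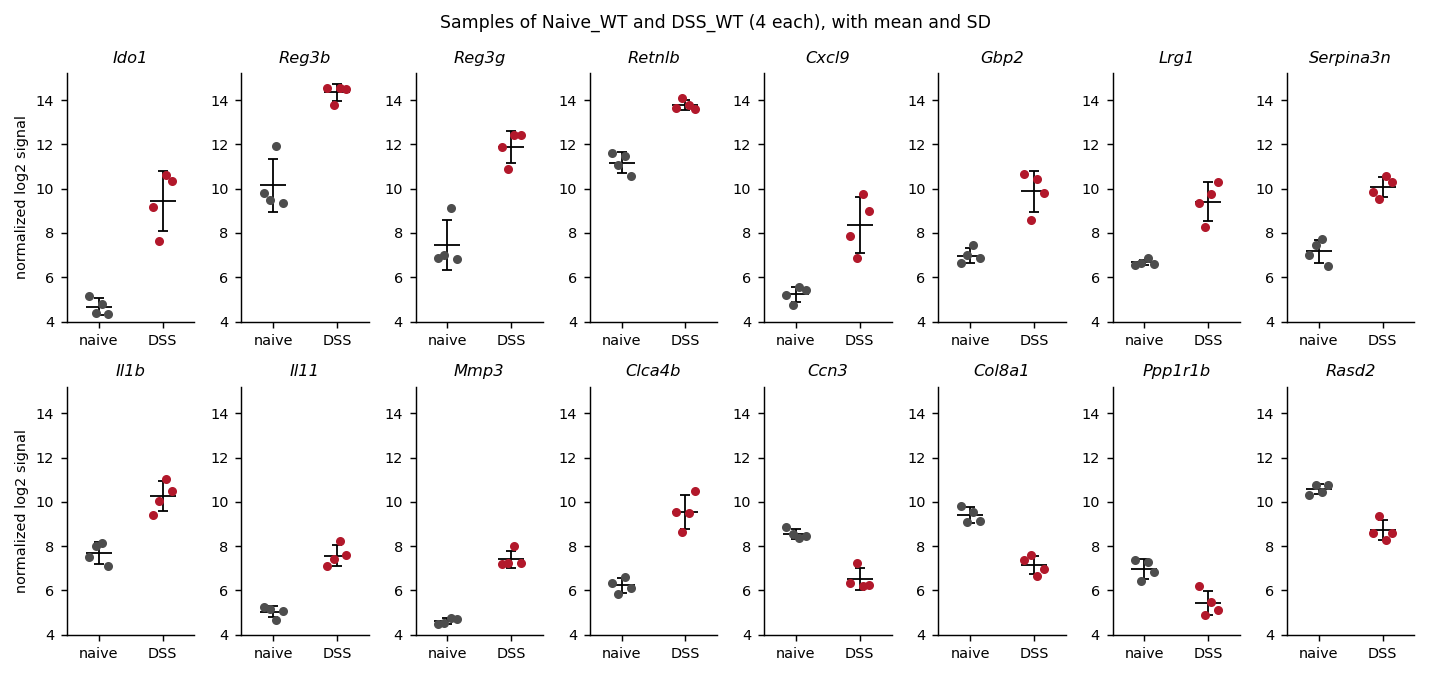
Log2 signal (vertical axis) of 16 genes in each WT sample, naive and DSS side by side, with points for samples and the group mean with its SD. The upper panels hold genes that rose, such as Ido1 (4.77) and Retnlb (2.60), and the last panels genes that fell, such as Col8a1 (-2.24) and Rasd2 (-1.85). DSS_WT 2 is the lowest DSS sample for Ido1, Cxcl9, Gbp2 and Lrg1.

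Within the IL-22, IL-6 and Stat3 axis, 6 of 19 tested genes rose and 1 fell, with a median of 0.21. Osmr, a receptor subunit for oncostatin M, rose by 1.13 (adjusted p 0.000698), the feedback inhibitor Socs3 by 0.91 (adjusted p 0.0016), the transcription factor Cebpb by 0.73 (adjusted p 0.00238) and Il6st, the shared receptor gp130, by 0.65 (adjusted p 0.00993). Stat3 itself rose by 0.57 (adjusted p 0.0135, but 0.0522 without DSS_WT 4), and Fut2, which fucosylates the epithelial surface, by 0.73 (adjusted p 0.0135). Jak1, the kinase that these receptors use, fell by 0.32 (adjusted p 0.0473, up to 0.124 with 1 sample left out). Under common-median scaling it stood at 0.023 (adjusted p 0.930), which was -0.25 relative to the median of all genes there. Of 24 tested NF-kappaB and Toll-like receptor genes, 9 rose and none fell (median 0.36). The called ones were Tnfaip2 (1.63, adjusted p 0.00137), the leukocyte adhesion molecule Icam1 (1.59, adjusted p 0.000823) and the TNF receptor Tnfrsf1b (1.35, adjusted p 0.000464). The inhibitor Nfkbie rose by 0.85 (adjusted p 0.00485) and Nfkbiz by 0.47 (adjusted p 0.0404, up to 0.112 with 1 sample left out). Tnfaip3 (0.67, adjusted p 0.0864) and the lipopolysaccharide co-receptor Cd14 (0.59, adjusted p 0.0875) did not pass.

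Of 22 tested chemokines, 12 rose, 1 fell and 11 were called (median 1.04). Cxcl9, which draws T cells and is induced by interferon-gamma, read 7.87, 6.85, 9.74 and 8.97 against 5.20, 4.75, 5.55 and 5.42. The DSS samples were widely spread, with DSS_WT 2 the lowest and all above the naive ones, and it rose by 3.13 (SE 0.58, adjusted p 0.00304). The neutrophil chemokine Cxcl2 was more even, at 8.80, 8.98, 9.28 and 9.38 against 7.26, 7.12, 7.13 and 6.97, and rose by 1.99 (adjusted p 0.000245). Cxcl1, which binds the same receptor, rose by 1.24 (adjusted p 0.000464) and Cxcl10 by 1.50 (adjusted p 0.000731). The monocyte chemokines Ccl4 (2.25, adjusted p 0.00228), Ccl2 (1.70, adjusted p 0.00137) and Ccl7 (1.62, adjusted p 0.000698) were called too. The one that fell was Ccl6 (-0.89, adjusted p 0.00736, but -0.50 with an adjusted p of 0.0672 under common-median scaling). The epithelial chemokines Ccl20 and Ccl28 stood at 0.05 (adjusted p 0.903) and -0.09 (adjusted p 0.849). Macrophage markers, given below, rose in the same samples, and their part in the rise of chemokines, cytokines and MHC class II genes was not tested.

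Of 23 cytokine and IL-1 family genes, 10 rose and none fell (median 0.53). Il1b, the central cytokine of inflammasome activation, read 9.42, 10.06, 11.04 and 10.50 against 7.53, 8.02, 8.14 and 7.09. DSS_WT 3 was the highest sample and the groups did not overlap, with a rise of 2.56 (SE 0.35, adjusted p 0.000464). Il11, an IL-6 family cytokine made mostly by stromal cells, read 7.09, 7.41, 8.23 and 7.59 against 5.26, 5.16, 4.68 and 5.08 and rose by 2.53 (SE 0.34, adjusted p 0.000464). The IL-1 decoy receptor Il1r2 rose by 1.87 (adjusted p 0.000615), Il6 by 1.23 (adjusted p 0.00238), Tnf by 1.21 (adjusted p 0.000894) and Lif by 1.09 (adjusted p 0.00353). The epithelial cytokines Il18 (0.36, adjusted p 0.380) and Il33 (0.06, adjusted p 0.919) and the receptor antagonist Il1rn (0.39, adjusted p 0.367) did not pass.

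Of 26 tested interferon-gamma targets outside the MHC, 14 rose, none fell and 9 were called (median 1.03). Ido1, which degrades tryptophan to kynurenine, had the largest rise of any probe with a gene symbol. It read 9.17, 7.62, 10.63 and 10.36 with DSS and 5.15, 4.39, 4.81 and 4.33 without, and was detected on 1 of the 4 naive arrays. DSS_WT 2 lay far below the other DSS samples and still above every naive one, and the rise was 4.77 (SE 0.60, adjusted p 0.000359). Wars, the tryptophanyl-tRNA synthetase that interferon-gamma induces, changed by 0.64 (adjusted p 0.055), and of 4 tested genes of tryptophan metabolism only Ido1 rose (median 0.37). The guanylate-binding protein Gbp2 read 10.67, 8.58, 10.44 and 9.81 against 6.62, 7.01, 7.44 and 6.85. It rose by 2.90 (SE 0.52, adjusted p 0.00251), while its other probe was detected on 1 DSS array and no naive array. Igtp, a GTPase that acts on vacuoles of intracellular microbes, read 9.51, 8.61, 10.34 and 9.71 against 7.23, 6.86, 7.13 and 7.01, a rise of 2.49 (adjusted p 0.00575). As for Ido1, DSS_WT 2 was the lowest DSS sample for both.

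Further members of that list were Gbp3 (2.07, adjusted p 0.00448), Serpina3g (2.62, SE 0.32, adjusted p 0.000288), whose groups read 7.26, 7.89, 8.52 and 7.51 against 5.14, 5.15, 5.62 and 4.80, and the checkpoint ligand Cd274, which rose by 1.16. The transcription factor Irf1 rose by 0.88 (adjusted p 0.00674). Ubd, a ubiquitin-like modifier, changed by 1.04 (adjusted p 0.169). Of 23 genes of the type I interferon response, 7 rose and none fell (median 0.52). These included Oasl2 (1.94, adjusted p 0.00841), the only one called, Irf9 (0.99, adjusted p 0.00238), Ifit3 (0.98, adjusted p 0.00916) and Ifitm3 (1.40, adjusted p 0.0134, but 0.0506 without DSS_WT 4). Isg15 (1.06, adjusted p 0.0514) and Irf7 (0.00 in size, adjusted p 0.998) did not pass.

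MHC class II genes, by which cells present antigen to helper T cells, rose in 8 of 13 tested and fell in none (median 1.41). Cd74, the invariant chain, read 11.47, 11.45, 12.41 and 11.81 against 10.09, 9.93, 10.18 and 9.03 and rose by 1.97 (adjusted p 0.00129). H2-Ab1 read 10.94, 11.18, 11.93 and 11.37 against 9.67, 9.51, 10.13 and 8.75 and rose by 1.84 (adjusted p 0.00928). In both, DSS_WT 3 was the highest and Naive_WT 12 the lowest sample. H2-DMa rose by 1.93 (adjusted p 0.00514), H2-Eb1 by 1.68 (adjusted p 0.0133) and H2-Aa by 1.53 (adjusted p 0.0243, up to 0.079 with 1 sample left out). Ciita, the transactivator of these genes, was not detected on naive arrays and did not pass (adjusted p 0.220). In the class I pathway 7 of 24 tested genes rose and none fell (median 0.12). Tap1, which pumps peptides into the endoplasmic reticulum, read 8.70, 7.89, 8.88 and 8.30 against 6.49, 6.44, 6.60 and 6.97 and was the one called (1.82, adjusted p 0.00514). The immunoproteasome subunits Psmb8 (1.51, adjusted p 0.0273, up to 0.0711), Psmb9 (1.46, adjusted p 0.0224, up to 0.0653) and Psmb10 (0.87, adjusted p 0.00928) rose. The brighter B2m probe (0.45, adjusted p 0.0561) and H2-K1 (-0.48, adjusted p 0.312) did not pass, while the other B2m probe did (0.48, adjusted p 0.0479).

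Markers of cells that the sort was meant to remove rose in the same samples. Of 20 tested macrophage genes, 17 rose, none fell and 16 were called (median 1.39). Their summed linear signal was 6193 to 11348 in DSS_WT and 2410 to 3790 in Naive_WT, and 24 against 20 of the 31 listed genes on the array were detected on any array of the group. Fcer1g, a signalling chain of Fc receptors, read 7.82, 8.01, 9.46 and 8.54 against 5.88, 6.10, 6.49 and 5.43 and rose by 2.48 (adjusted p 0.000464). The complement gene C1qb rose by 2.10 (adjusted p 0.00102), the costimulator Cd86 by 1.95 (adjusted p 0.000287), the lysozyme Lyz2 by 1.88 (adjusted p 0.0019), Tyrobp by 1.67 (adjusted p 0.0011) and Csf1r by 1.31 (adjusted p 0.000615). Adgre1, which encodes the F4/80 protein used to exclude macrophages, read 5.93, 6.67, 6.58 and 6.47 against 4.75, 5.07, 5.30 and 4.50 and rose by 1.51 (adjusted p 0.00253). Ptprc, which encodes the excluded CD45, and Itgam did not pass the detection filter.

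Fibroblast and matrix genes behaved likewise, with 22 of 30 higher, 2 lower and 12 called higher (median 1.07), and a summed signal of 15313 to 20642 against 7366 to 13781. Mgp rose by 2.01 (adjusted p 0.000932), Mmp2 by 1.48 (adjusted p 0.000698) and Pdgfra, the growth factor receptor of stromal cells, by 1.38 (adjusted p 0.00169). Col1a1 rose by 1.20 (adjusted p 0.0452, up to 0.135 with 1 sample left out) and Col3a1 changed by 0.75 (adjusted p 0.103). The summed signal of the neutrophil list was 526 to 1528 against 186 to 248, with 12 against 7 of the 16 listed genes on the array detected. Of 9 tested, 5 rose and none fell (median 1.45), while Mpo, Elane and Cxcr2 did not pass the detection filter. Of 17 T and NK cell genes 8 rose and none fell (median 0.56), and their sums overlapped (2971 to 3587 against 1962 to 2979). Cd3g, detected on 4 of the 5 DSS arrays and on no naive array, was at least 1.26-fold higher (adjusted p 0.00355), whereas Cd3e and Cd8a did not pass the filter.

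No gene of the endothelial, smooth muscle or B and plasma cell lists was called. Endothelial genes rose in 5 of 19 tested (18 with a value above 0, median 0.34, sums 2169 to 3306 against 1685 to 2526), smooth muscle genes in 1 of 17 (median 0.16, sums 20780 to 27871 against 17861 to 25113) and B and plasma cell genes in 1 of 9 (median 0.15, sums 1468 to 2520 against 1560 to 1936), with none lower. The 2 tested erythrocyte genes did not pass (median 0.48). Igk-V38, an immunoglobulin light-chain segment outside these lists, was read by a pair of probes. The brighter was not detected on naive arrays, read 7.16, 7.99, 9.21 and 7.18 with DSS and was at least 7.93-fold higher (adjusted p 0.000488), and the other, detected on 1 naive array, rose by 2.63 (adjusted p 0.00656). In all, 31 of the 238 genes called higher (13%) and 1 of the 63 called lower (1.59%) were among the 122 tested genes of these 8 lists, which made up 0.774% of all tested genes. The neutrophil markers include calprotectin and Lcn2 themselves, and the fibroblast list includes Mmp3. Fibroblast markers moved with the other matrix metalloproteinases, Timp1, Saa3 and Il11 above, and T cell markers with Cxcl9 and the interferon-gamma targets, and their part in those rises was not tested either. In RNA of pooled sorted cells, fewer cells of a type and less RNA per cell cannot be told apart.

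**Figure D3:**
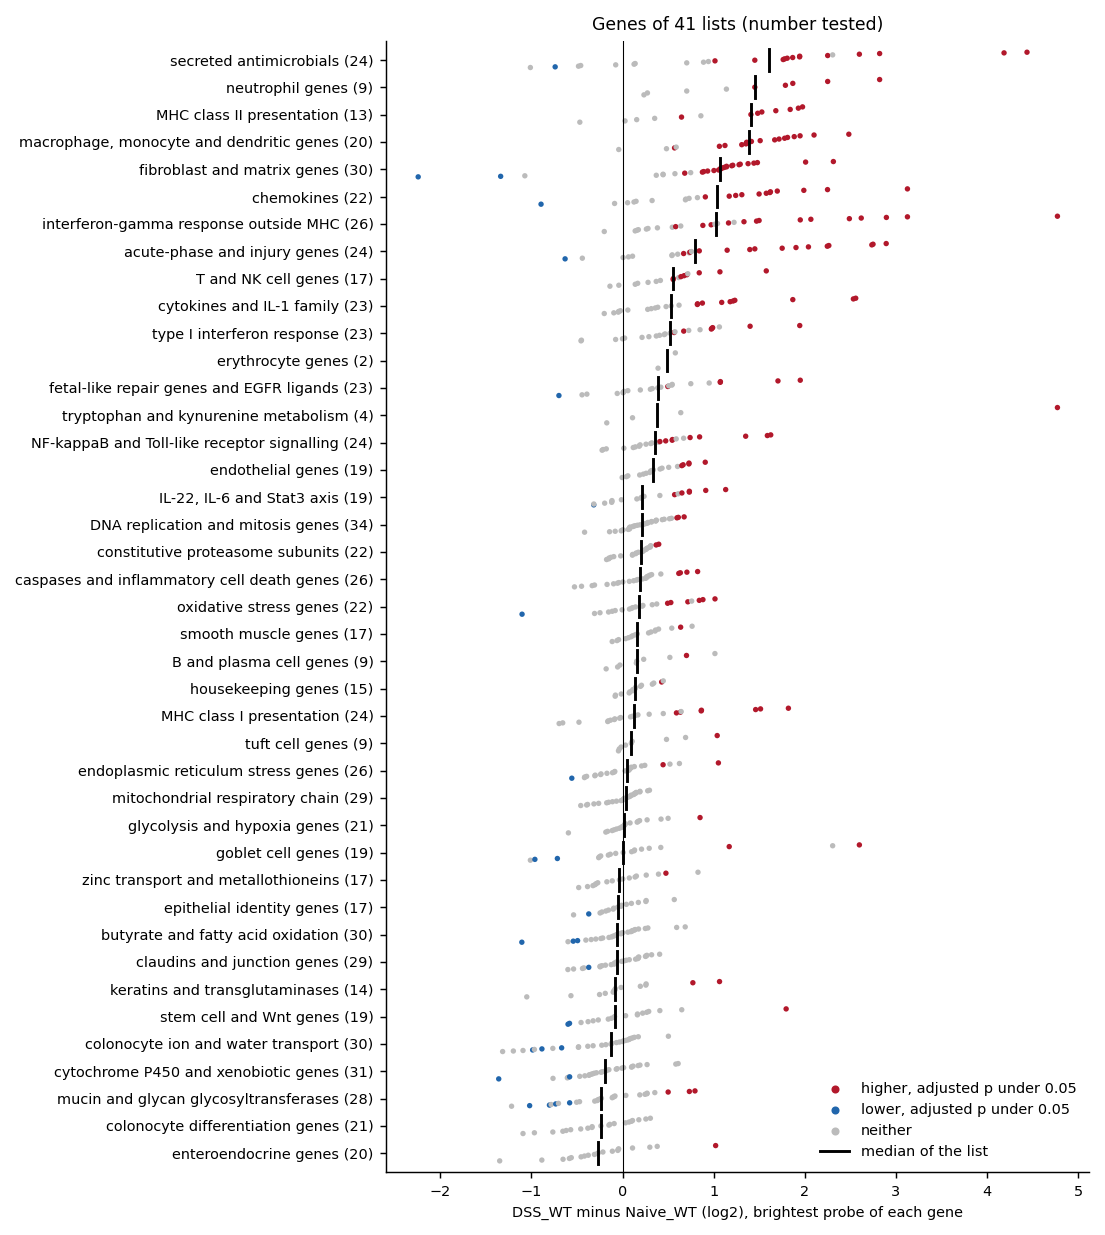
Log2 change (DSS_WT minus Naive_WT, horizontal axis) of the tested genes of 41 lists, 1 point per gene, red for genes that rose and blue for genes that fell at an adjusted p under 0.05. The black bar is the list's median. Antimicrobials (1.61), neutrophil (1.45), MHC class II (1.41) and macrophage genes (1.39) lie furthest to the right, and the lists of epithelial cell types lie around 0.

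**Figure D4:**
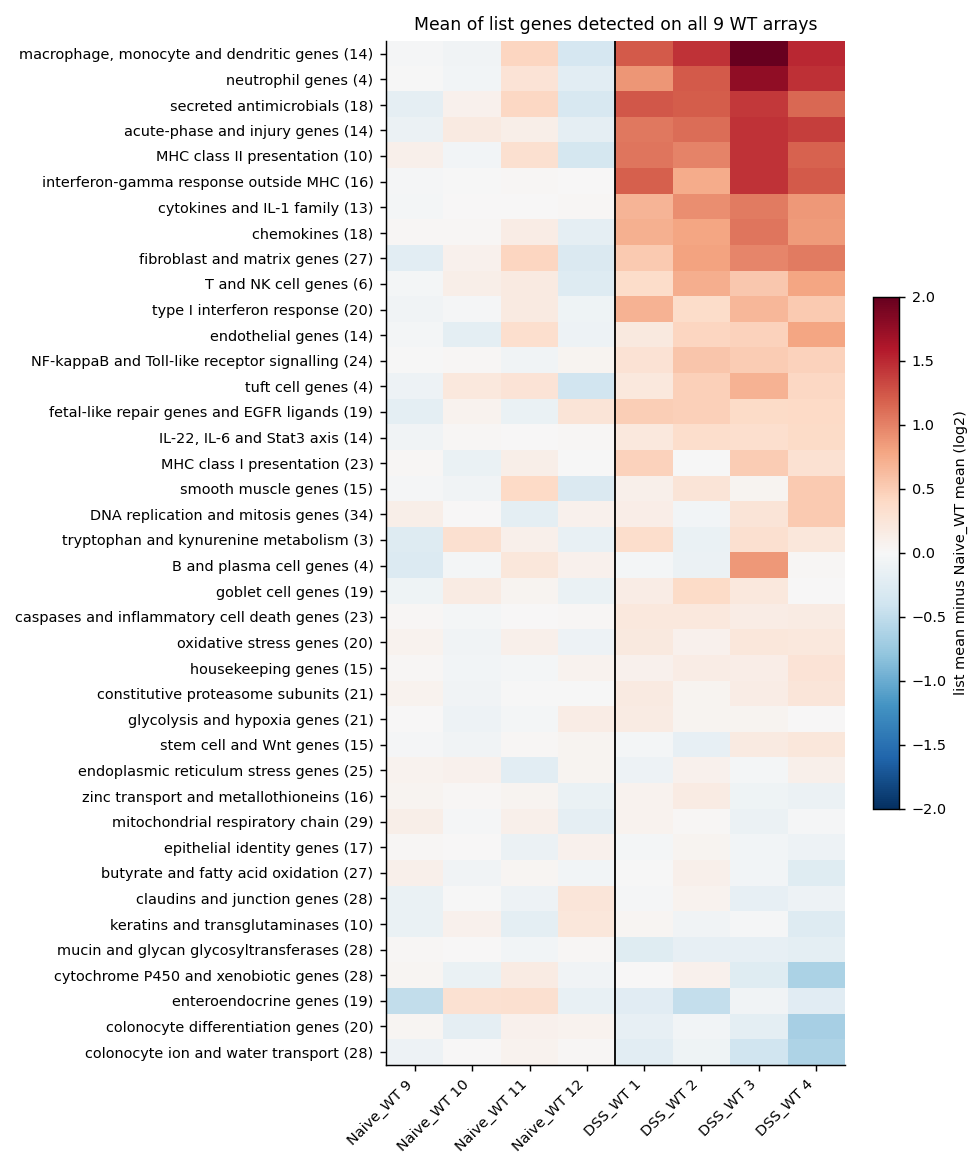
Mean log2 signal of each list in each WT sample minus its Naive_WT mean, over genes detected on all 9 WT arrays, on a color scale from -2 to 2. Macrophage genes stand at 1.22, 1.45, 2.09 and 1.51 in DSS_WT 1 to 4, and interferon-gamma genes at 1.19, 0.75, 1.44 and 1.23.

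Common-median scaling, under which the median of all genes was 0.27, gave over 1.5 times as many rises in 28 of the 41 lists. There 18 of 23 type I interferon genes rose (median 0.78), 16 of 22 proteasome genes (0.59), 14 of 24 NF-kappaB genes (0.74), 13 of 23 fetal-like genes (0.66), 14 of 22 oxidative stress genes (0.47), 12 of 26 cell death genes (0.52), 10 of 34 replication and mitosis genes (0.58) and 8 of 15 housekeeping genes (0.49). Of 16 lists with a fall, 13 had none under that scaling.

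Counts of genes that rose rested on single samples in some lists. With 1 sample left out, 16 to 18 of the 20 macrophage genes, 12 or 13 of the 22 chemokines, 9 to 11 of the 23 cytokine genes and 7 or 8 of the 13 MHC class II genes rose. Of the 24 class I genes, of which 7 rose over all samples, 2 rose without DSS_WT 4, 3 without DSS_WT 3 or Naive_WT 10 and 4 without DSS_WT 1 or Naive_WT 12. Under common-median scaling 12 of them rose, with a median of 0.52. Of the 19 endothelial genes, of which 5 rose over all samples, 1 rose without Naive_WT 10, 2 without DSS_WT 4 or Naive_WT 12, 3 without Naive_WT 9 and 8 without DSS_WT 1, with medians from 0.23 to 0.53. Neutrophil genes were down to 2 of 9 without DSS_WT 3 or DSS_WT 4, and T and NK cell genes to 4 of 17 without DSS_WT 3, DSS_WT 4 or Naive_WT 12. NF-kappaB genes were down to 5 of 24 without DSS_WT 3, DSS_WT 4 or Naive_WT 10, type I interferon genes to 4 of 23 without DSS_WT 4 and oxidative stress genes to 3 of 22 without DSS_WT 3, Naive_WT 9 or Naive_WT 10. Fetal-like genes were down to 3 of 23 without DSS_WT 3, DSS_WT 4 or Naive_WT 9, and replication and mitosis genes to 1 of 34 without Naive_WT 12 and to none without DSS_WT 4. Of the 30 ion and water transport genes 1 fell without DSS_WT 4, Naive_WT 10, Naive_WT 11 or Naive_WT 12, and 5 without DSS_WT 2.

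The order of the DSS samples differed between programs. In the map of list means, macrophage (2.09), neutrophil (1.77), interferon-gamma (1.44) and MHC class II genes (1.45) were highest in DSS_WT 3. Fibroblast genes stood at 0.53, 0.80, 0.97 and 1.04, highest in DSS_WT 4. The interferon-gamma list was lowest in DSS_WT 2 (0.75), where macrophage genes (1.45) were higher than in DSS_WT 1 (1.22). Genes of colonocyte transport stood at -0.22, -0.08, -0.40 and -0.61 and those of colonocyte differentiation at -0.16, -0.06, -0.20 and -0.67, lowest in DSS_WT 4.

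Epithelial identity genes are read beside the shares of all genes, 6.26% that rose and 4.56% that fell. Krt8, a keratin of simple epithelia, ranged from 14.59 to 14.74 with DSS and from 14.63 to 14.77 without (change -0.02, adjusted p 0.925). The highest level of any probe was 14.83 to 14.88 in each sample, so Krt8, Muc2 and the DSS values of the brighter Reg3b probe lay near the upper end of the range, where a difference can be understated. The summed signal of the epithelial identity list was 128809 to 143881 against 129594 to 156383, and of 17 tested genes 1 fell and none rose (median -0.05, 0.19 under common-median scaling). The one that fell was the adhesion molecule Cdh1 (-0.37, adjusted p 0.0378, up to 0.106 with 1 sample left out, and -0.01 with an adjusted p of 0.975 under common-median scaling). Epcam, on which the cells were sorted, changed by -0.54 (adjusted p 0.0615).

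The absorptive colonocyte genes that passed the test were lower. Of 30 ion and water transport genes 3 fell and none rose, against 4.56% of all genes that fell and 6.26% that rose. Their median was -0.13, and 0.12 under common-median scaling, where that of all genes was 0.27. Carbonic anhydrase Car2 read 11.90, 11.11, 11.49 and 10.74 against 12.46, 12.06, 12.40 and 12.27 and fell by 0.99 (adjusted p 0.013, but -0.60 with an adjusted p of 0.0767 under common-median scaling). Slc5a8, a butyrate transporter, fell by 0.67 (adjusted p 0.0328, up to 0.11 with 1 sample left out, and -0.29 with an adjusted p of 0.217 under that scaling). The third, Hsd11b2, which inactivates glucocorticoids, fell by 0.89 (adjusted p 0.0308, up to 0.0954, and -0.49 with an adjusted p of 0.0826). The chloride exchanger Slc26a3 (-1.09, adjusted p 0.0608), the water channel Aqp8 (-0.97, adjusted p 0.189) and the carbonic anhydrases Car4 (-0.77, adjusted p 0.198) and Car1 (0.07, adjusted p 0.819) did not pass. None of 21 colonocyte differentiation genes passed in either direction (median -0.24, 0.12 under common-median scaling), among them Krt20 (0.26, adjusted p 0.399) and Vil1 (0.10, adjusted p 0.667).

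One gene of the surface epithelium went far the other way. Clca4b, a member of the family of chloride channel accessory proteins, read 9.52, 8.65, 9.51 and 10.50 against 6.33, 5.84, 6.62 and 6.13. It rose by 3.32 (SE 0.37, adjusted p 0.000245), with no overlap, while its other probe changed by 0.86 (adjusted p 0.166).

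Goblet cell genes were divided, with 2 of 19 higher, both called, and 2 lower (median 0.01). The 2 that rose were Retnlb, given above, and Ccl9, which rose by 1.17 (adjusted p 0.00313). The mucin Muc2 ranged from 14.39 to 14.56 with DSS and from 14.48 to 14.72 without (change -0.16, adjusted p 0.321), and Tff3 (-0.13, adjusted p 0.796) and Clca1 (0.01, adjusted p 0.996) did not pass either. Muc4, a membrane mucin, fell by 0.96 (adjusted p 0.00981, but -0.63 with an adjusted p of 0.0856 under common-median scaling). Agr2, which folds mucins, fell by 0.72 (adjusted p 0.049, up to 0.139 with 1 sample left out, and -0.31 with an adjusted p of 0.357 under that scaling).

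Of 28 glycosyltransferases, which build the sugar chains of mucins, 3 rose and 4 fell (median -0.24, 0.14 under common-median scaling). The sialyltransferase St3gal6 read 11.19, 11.31, 10.89 and 10.96 against 11.73, 12.21, 12.17 and 12.31 and fell by 1.02 (adjusted p 0.00353). St6galnac6, which adds sialic acid to glycolipids and glycoproteins, was read by 4 probes. The one filed under its older symbol, Siat7f, read 7.65, 4.78, 6.61 and 5.34 against 9.86, 8.17, 9.70 and 7.86 and gave the largest fall of any described gene, -2.80 (SE 0.55, adjusted p 0.00446). The groups came close to each other but did not overlap. Of the other 3 probes, the brightest fell by 0.80 (adjusted p 0.00311, but -0.43 with an adjusted p of 0.0502 under common-median scaling), and the remaining ones gave -2.02 and -1.75. St6galnac2 fell by 0.58 (adjusted p 0.00759, but -0.19 with an adjusted p of 0.418 under that scaling) and St6galnac4 by 0.73 (adjusted p 0.0465, up to 0.123 with 1 sample left out, and -0.41 with an adjusted p of 0.176 under that scaling). Dimmer St6galnac4 probes gave -1.11 (adjusted p 0.000517) and -1.02 (adjusted p 0.000813), both called. The dimmest, detected on no DSS_WT array, was at least 1.26-fold lower (adjusted p 0.00879). B4galnt1, which adds N-acetylgalactosamine to gangliosides, rose by 0.79 (adjusted p 0.00968).

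Rarer epithelial lineages showed single genes only. Of 20 enteroendocrine genes 1 rose (median -0.27, 0.04 under common-median scaling): Tac1, the precursor of substance P, by 1.02 (adjusted p 0.00304). Chga, the granule protein of these cells, stood at -0.05 (adjusted p 0.926) and the hormone Insl5 at -1.35 (adjusted p 0.168). Of 9 tuft cell genes 1 rose (median 0.10), Alox5ap, a leukotriene synthesis protein that leukocytes also express, by 1.04 (adjusted p 0.0208, up to 0.0674 with 1 sample left out). The kinase Dclk1 (0.03, adjusted p 0.958) and the channel Trpm5 (-0.05, adjusted p 0.865), which define tuft cells, did not pass.

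In the stem cell and Wnt list 1 of 19 rose and 2 fell (median -0.09). The falls were those of the homeodomain protein Hopx (-0.60, adjusted p 0.0259, up to 0.0742 with 1 sample left out) and the growth factor receptor inhibitor Lrig1 (-0.58, adjusted p 0.0428, up to 0.130). Under common-median scaling they gave -0.21 (adjusted p 0.476) and -0.20 (adjusted p 0.514). Sp5, a transcription factor and Wnt target, read 7.62, 7.26, 7.47 and 7.44 against 6.34, 5.32, 5.60 and 5.35, a rise of 1.80 (adjusted p 0.000587), while the Wnt target Axin2 (-0.32, adjusted p 0.345) and the stem cell genes Lgr5 (-0.16, adjusted p 0.800) and Ascl2 (-0.38, adjusted p 0.232) did not pass. Of 23 genes of the fetal-like state seen in regenerating epithelium, 5 rose, 3 of them called, and 1 fell (median 0.39). Ly6a, the Sca-1 antigen, read 13.33, 12.57, 13.22 and 13.32 against 11.20, 11.12, 11.35 and 10.96 and rose by 1.95 (adjusted p 0.000359). Ly6c1, of the same family, rose by 1.71 (adjusted p 0.00861) and the gap junction protein Gja1 by 1.07 (adjusted p 0.00346), whereas Anxa1 (0.01, adjusted p 0.983) and Areg (-0.06, adjusted p 0.895) did not pass. Ly6a is also a member of the interferon-gamma list. The one that fell was the matricellular protein Ccn1 (-0.70, adjusted p 0.0163, but -0.31 with an adjusted p of 0.316 under common-median scaling). Its dimmer probes gave -0.92 (adjusted p 0.00983) and -1.27 (adjusted p 0.00277), the latter called.

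Proliferation genes that passed were higher, and those of structure went both ways. Of 34 replication and mitosis genes 3 rose and none fell (median 0.21), against 6.26% of all genes that rose. A value above 0 was found for 29 of them, as for 51.1% of all genes. Mki67 (0.23, adjusted p 0.440), Top2a (0.46, adjusted p 0.155) and Pcna (-0.42, adjusted p 0.172) did not pass. Of 29 junction genes 1 fell, the Cdh1 given above (median -0.06), with the claudin Cldn4 at 0.17 (adjusted p 0.816) and the tight junction protein Tjp1 at -0.12 (adjusted p 0.625). Of 14 keratins and transglutaminases 2 rose (median -0.08): the crosslinking enzyme Tgm2, by 1.06 (adjusted p 0.00798), and Krt17, by 0.77 (adjusted p 0.0184, up to 0.0554 with 1 sample left out).

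Metabolic programs were close to the median of all genes. None of 29 respiratory chain genes passed (median 0.04). Of 30 genes of butyrate and fatty acid oxidation 3 fell and none rose (median -0.06), led by Acsl1, which activates long-chain fatty acids. It read 6.94, 6.13, 7.12 and 6.91 against 7.74, 7.74, 7.91 and 8.12 and fell by 1.11 (adjusted p 0.00232). Acat1, a mitochondrial thiolase, fell by 0.54 (adjusted p 0.0134). Of 31 xenobiotic enzymes 2 fell (median -0.19, 0.15 under common-median scaling), Cyp2f2 by 1.36 (adjusted p 0.0452, up to 0.147 with 1 sample left out) and Ugt2b34 by 0.58 (adjusted p 0.0406, up to 0.127). Both missed 0.05 under common-median scaling, Cyp2f2 with an adjusted p of 0.0524 and Ugt2b34 with one of 0.510. In the zinc list 1 of 17 rose (median -0.03), and the metallothioneins Mt1 (0.39, adjusted p 0.215) and Mt2 (0.83, adjusted p 0.116) did not pass.

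Stress programs were mixed. Of 26 genes of the endoplasmic reticulum stress response 2 rose and 1 fell (median 0.05), the stress sensor Ern1 (-0.56, adjusted p 0.0317, up to 0.0905 with 1 sample left out, and -0.17 with an adjusted p of 0.446 under common-median scaling), with the chaperone Hspa5 at -0.24 (adjusted p 0.422). Of 21 glycolysis and hypoxia genes 1 rose (median 0.02), Egln3, an oxygen-sensing hydroxylase, by 0.85 (adjusted p 0.0218, up to 0.0615 with 1 sample left out). In the oxidative stress list 6 of 22 rose and 1 fell (median 0.18). Nfe2l2, the transcription factor that drives antioxidant genes, fell by 1.10 (adjusted p 0.00908, but -0.76 with an adjusted p of 0.0626 under common-median scaling), while its known target Hmox1 rose by 0.84 (adjusted p 0.00627) and the glutathione peroxidase Gpx2 by 0.88 (adjusted p 0.00671). Of 26 caspase and cell death genes 4 rose and none fell (median 0.19): Ripk3, a kinase of necroptosis, by 0.82 (adjusted p 0.00816), its substrate Mlkl by 0.71 (adjusted p 0.0299, up to 0.0889 with 1 sample left out), Nlrc4, which senses flagellin, by 0.62 (adjusted p 0.00596) and Casp4 by 0.63 (adjusted p 0.0146). Of 22 proteasome genes 2 rose (median 0.20). Among 15 housekeeping genes Actb alone rose, by 0.43 (adjusted p 0.0437, up to 0.133 with 1 sample left out), and Gapdh stood at 0.07 (adjusted p 0.728). The dimmer Actb probes disagreed in sign (-0.05, -0.66, 0.45 and 0.44), and none of them passed.

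Of the 63 genes called lower, 4 were in any list (6.35%), close to the share of all tested genes (792 of 15757, 5.03%), against 85 of the 238 called higher (35.7%). Under common-median scaling each of the following falls still passed 0.05 on the probe that gave it. Col8a1, a short-chain collagen of the fibroblast list, read 7.36, 7.62, 6.67 and 6.96 against 9.83, 9.10, 9.55 and 9.11 and fell by 2.24 (SE 0.33, adjusted p 0.000698), opposite to most genes of that list. Its other probe gave -2.18. Ccn3, a secreted matricellular protein, read 6.36, 7.24, 6.22 and 6.24 against 8.85, 8.53, 8.35 and 8.44 and fell by 2.03 (SE 0.29, adjusted p 0.000587). Both showed no overlap, with over 1 log2 unit between the groups.

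Further falls concerned signalling genes. Rasd2, a small GTPase, read 8.60, 9.35, 8.29 and 8.60 against 10.30, 10.75, 10.45 and 10.74 and fell by 1.85 (SE 0.31, adjusted p 0.0016). Dlk1, a Notch-related surface protein, read 6.40, 7.21, 6.18 and 6.91 against 9.08, 7.64, 8.39 and 8.30 and fell by 1.67 (SE 0.31, adjusted p 0.0032). Fndc5, the precursor of irisin, fell by 1.76 (SE 0.34, adjusted p 0.00417), and its other 3 probes gave -1.24, -1.27 and -1.16. For Dlk1 and Fndc5 every probe moved the same way by more than 1 log2 unit. Npy1r, a receptor for neuropeptide Y and peptide YY, read 5.15, 4.85, 5.17 and 5.08 against 5.95, 6.54, 6.65 and 7.28 and fell by 1.54 (SE 0.22, adjusted p 0.000525).

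A transporter and enzymes were among the rest. The zinc transporter Slc39a5 read 6.53, 4.62, 5.63 and 4.47 against 8.09, 7.04, 8.61 and 6.71 on 1 probe, detected on 2 of the 5 DSS arrays, a fall of 2.30 (SE 0.42, adjusted p 0.0029). Its other probes gave -0.33 and -0.21. Probes also disagreed in size for Deptor, an inhibitor of mTOR (-1.55, adjusted p 0.00973, against -0.32), for Hpn, a membrane serine protease (-1.52, adjusted p 0.00102, against -0.54 and -0.53), for the fatty acid oxidation enzyme Hadh (-1.66, adjusted p 0.00471, under its older symbol Hadhsc, against -0.49) and for Ppp1r1b, a phosphatase inhibitor (-1.55, adjusted p 0.00253, against -0.19 and -0.18 on its brighter probes). For Slc39a5, Deptor and Ppp1r1b the larger fall came from the dimmest probe, and for Hpn and Hadh from the brightest.

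Detection gave a readout that does not rest on normalization. Of the tested probes, 80 were detected on all DSS_WT arrays and no Naive_WT array, 25 of which were called, and 43 on all Naive_WT and no DSS_WT array, 1 of which was called. Among the first were the pentraxin Ptx3, at least 3.12-fold higher (adjusted p 0.000587), and Serpina3f, at least 2.51-fold higher. The called one among the second was Sh3bgr, at least 1.82-fold lower (adjusted p 0.000698).

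The DSS response of Mbd2KO epithelium was compared with that of WT in the same limma fit. No probe had an interaction adjusted p under 0.05 (0%, smallest 0.131), while 2339 (10.7%) had an unadjusted p under 0.05, so no single difference between the genotypes passed. Of the 382 probes called in WT, 371 (97.1%) changed in the same direction in Mbd2KO. The change was larger in WT in 315 (82.5%), with medians of 1.38 against 1.08 for probes called higher and -1.18 against -0.80 for those called lower. These probes were chosen for their size in WT, which by itself favors a larger WT value, so the shares are a description. The called gene with the smallest interaction p was Fn1, the matrix protein fibronectin, which read 8.29, 8.05, 8.57 and 8.48 against 6.59, 7.18, 7.62 and 7.43 in WT and rose by 1.14 (SE 0.23, adjusted p 0.00517) there, against -0.45 in Mbd2KO (interaction p 0.000143, adjusted p 0.170). The matrix-processing protease Adamts2 stood at 1.38 against 0.31 (interaction adjusted p 0.177).

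The remaining examples were epithelial or metabolic. The brighter Reg3b probe stood at 4.19 in WT and 1.28 in Mbd2KO (interaction p 0.000509, adjusted p 0.199), but the other Reg3b probe at 4.52 and 3.96 (interaction p 0.537), so the pair disagreed. Glul, glutamine synthetase, read 7.21, 7.82, 6.90 and 7.48 against 8.39, 8.58, 8.73 and 8.09 in WT and stood at -1.09 there and 0.12 in Mbd2KO (interaction adjusted p 0.199). For Ppp1r1b the values were -1.55 and 0.09 (interaction adjusted p 0.208). Retnlb (2.60 against 0.71, interaction p 0.0187) and Cd74 (1.97 against 0.74, interaction p 0.0137) had the smaller value in Mbd2KO, and Ido1 stood at 4.77 and 3.36. Aqp8 went the other way (-0.97 against -2.83, interaction p 0.0106).

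**Figure D5:**
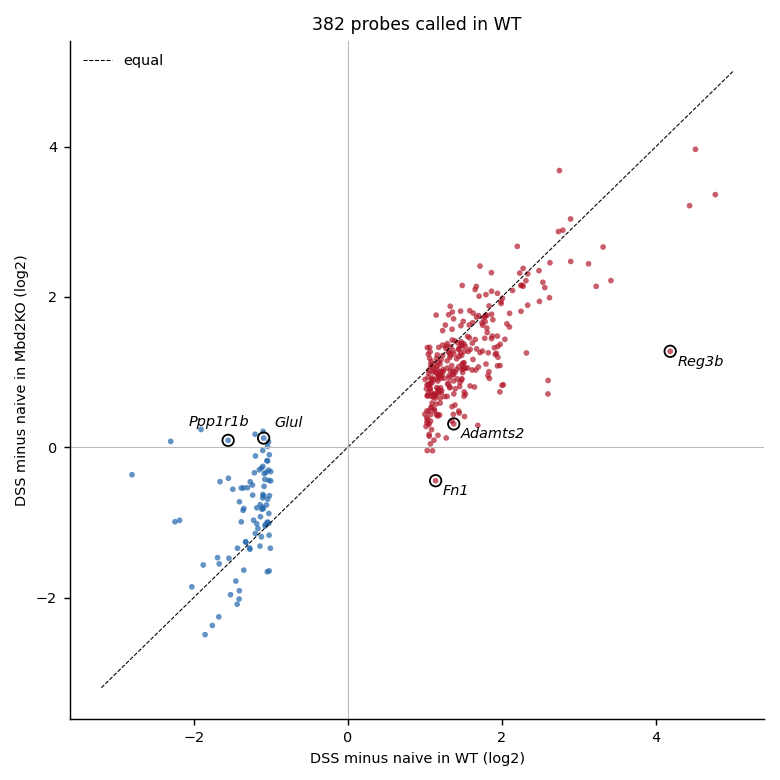
Log2 change with DSS in Mbd2KO (vertical axis) against that in WT (horizontal axis) for the 382 probes called in WT (red higher, blue lower), with a dashed line of equal change. Of these, 371 share their sign and 315 lie nearer 0 in Mbd2KO. Circles mark Fn1, Adamts2, the brighter Reg3b probe, Glul and Ppp1r1b.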

How the data were processed

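Messenger RNA of sorted colon epithelium was measured on Illumina MouseWG-6 arrays. Per the file headers (version 1.1.1, normalization none), the deposited intensity is the mean bead signal of a probe on a linear scale, without background subtraction. The deposited detection p-value compares each probe with the 936 negative controls among 974 control probes of the same array. The submitters' processing notes name lumi and limma, and 72 deposited columns (bead numbers, bead errors and the like) were not used.

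With neqc, the negative controls served to correct the background of all 18 arrays, followed by quantile normalization and log2 (limma 3.58.1, R 4.3.3, offset 16), which lets dim probes spread more than bright ones. A probe stayed if at least 4 arrays detected it (p under 0.05), which removed 23343. Arrays 4 and 4R, whose log2 difference had an SD of 0.194 against 0.334 to 0.482 for other DSS_WT pairs, were averaged. The labels do not explain the letter R. One limma model with a mean for each group was fitted to the 16 samples (12 residual and 4.71 prior degrees of freedom), with two-sided empirical Bayes tests and Benjamini-Hochberg adjustment over all tested probes. The thresholds for a call are those of the study's methods. The steps were checked on simulated data.

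Symbols were updated by Entrez identifier (29586 probes, 65.3%, RefSeq GRCm38.p6), and promoters were found for 9431 of 15757 tested genes. The build of the deposited probe coordinates is not given in the sources used here, so none are printed. The 41 lists held 980 genes, 792 of them tested. The genes described are the 15 largest rises and 15 largest falls among called probes without overlap (loci without a gene symbol counted only, and some genes not reported here), core genes of each list, up to the 4 called or looser-rule genes of each list with the largest changes, and the called genes with the smallest interaction p. Members of lists given beyond these were chosen after their values were seen. All members and lists were chosen with earlier results of these data known. Alternatives covered background correction, normalization, offset, the detection filter, repeat arrays, array weights, the variance prior and each sample left out.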

Additional observations from a re-analysis of the deposited data

Results flagged for a closer look

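In 33 of 514 groups of 4 values checked for the named probes (6.42%), the highest or lowest sample stood so far from its nearest neighbor that the gap took up most of the range of the group, past the 95% limit of Dixon's test. Chance gives about 5% of groups, so the share is close to that level. The lone sample was DSS_WT 1 in 4 groups, DSS_WT 2 in 6, DSS_WT 3 in 4, DSS_WT 4 in 3, Naive_WT 9 in 3, Naive_WT 10 in 2, Naive_WT 11 in 6 and Naive_WT 12 in 5.

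Among naive samples, Naive_WT 11 stood alone above the rest in the Reg lectins, at 7.29 for the dimmer Reg3b probe and 9.13 for Reg3g. The same sample stood alone in Isg15 (7.20), in Actg2 (11.78), in a probe of Ppp1r1b (12.11) and, near background, in S100a8 (4.61). Naive_WT 12 was the lone sample in Guca2a (14.26), Krt8 (14.77), Cldn8 (6.45), Timp1 (5.05) and Il1r2 (4.98). Naive_WT 9 was the lone sample in Il6st (7.27), Tnf (8.70) and 4432416J03Rik (7.61), and Naive_WT 10 in Casp1 (12.31) and, below detection, in Cd3g (4.74).

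Among DSS samples, DSS_WT 2 stood alone at 13.76 for the brighter Reg3b probe, 6.34 for Reg1, 12.57 for Ly6a, 9.40 for Ly6c1, 8.86 for Tapbpl and 7.24 for Ccn3. DSS_WT 3 stood alone above the rest in a pair of Mmp3 probes (7.99 and 8.37) and in Ccl2 (7.83), and was the lone sample in Cdh1 (11.98). DSS_WT 1 stood alone in Osmr (7.41), Tnfrsf1b (7.08), Nlrc4 (8.84) and Tek (6.85), and DSS_WT 4 in Irf7 (7.31), Aqp8 (8.02) and Ddit3 (9.52). No cause was tested for any of these.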

How the results depend on the processing

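The count of 382 called probes (294 higher, 88 lower) stayed within 1.5 times under cyclic loess (364), a detection filter at 0.01 (381), WT arrays (296) or WT samples (298) alone, the repeat arrays (379) or their first arrays (385) left out, array weights (470) and an intensity trend (394). Without background correction it was 85 (71 higher, 14 lower), with an offset of 50 it was 186 (153 higher, 33 lower), and with no detection filter 53 were lower. These settings shrink or add dim probes by construction. Scaling to a common median gave 660 (625 higher, 35 lower) and 5273 at an adjusted p under 0.05, against 2295. Repeat arrays kept as separate replicates gave 153 lower and 3452 at 0.05. With 1 sample left out the count ran from 233 to 477, with 181 to 326 higher, 46 to 151 lower and 1218 to 2306 at 0.05 (703 to 1255 higher, 515 to 1051 lower). It moved by over 1.5 times without DSS_WT 1 (151 lower), DSS_WT 3 (248 called, 181 higher, 1520 at 0.05, 661 of them lower), DSS_WT 4 (233 called, 187 higher, 46 lower, 1218 at 0.05, 703 of them higher and 515 lower), Naive_WT 10 (56 lower, 693 lower at 0.05), Naive_WT 11 (626 lower at 0.05) and Naive_WT 12 (1412 at 0.05, 825 higher and 587 lower); the cause was not tested. Jak1 reversed under common-median scaling (0.023 against -0.32, adjusted p 0.930 against 0.0473) but stayed below the median of all genes there (-0.25). Of 166 named probes at 0.05, between 17 and 47 missed it with 1 sample left out, 18 besides Jak1 under common-median scaling, 12 without background correction and 27 without the filter. List medians moved by more than the replicate spread in 66 of 902 comparisons. No paired analysis was possible because the replicate numbers of the groups never coincide. Signal over background limits dim probes, and no exact change is given where no array of a group detected a described probe.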

Other observations

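Gene families that no list held were looked at after their values were seen, so they are given as values with no test of the family. The counts of each family below stand beside 6.26% of all tested genes that rose and 4.56% that fell. Hox genes, transcription factors that lay out position along the body axis, moved in part. Of 13 tested genes of paralogue groups 2 to 8, 8 rose, all of them Hoxb or Hoxd genes, and 6 were called (median change 0.96, and 1.24 under common-median scaling, against 0.27 for all genes there). Hoxb6 rose by 1.70 (adjusted p 0.000245), Hoxd4 by 1.51, Hoxd8 by 1.48, Hoxb2 by 1.30, Hoxd3 by 1.17 and Hoxb7 by 1.15. Hoxa2 (0.12), Hoxa4 (0.42), Hoxa5 (-0.16), Hoxa7 (-0.47) and Hoxc8 (0.11) did not pass, and a difference by position or by cluster was not tested. Of 11 tested genes of groups 9 to 13, which mark the hindgut, none rose and Hoxa9 fell by 1.04 (median -0.13, and -0.09 under common-median scaling, where no gene of these groups passed). The medians of the former ran from 0.42 to 1.28 and those of the latter from -0.32 to -0.04 over all 21 alternatives. Fibroblast markers, which rose in the same samples, belong to cells that also express Hox genes, and their part was not tested.

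Some receptors of innate immune cells rose, in the same samples as the macrophage markers (17 of 20, median 1.39), whose part was not tested. Of 6 Fc receptor genes 4 rose, among them Fcer1g, a member of the macrophage list, Fcgr4 (2.20, adjusted p 0.00066) and Fcgr2b (1.88, adjusted p 0.000245). Of 14 genes with a Clec symbol, C-type lectins other than the Reg family, 5 rose and none fell, led by Clec7a, the beta-glucan receptor (2.14, adjusted p 0.000288), Clec4n (1.53) and Clec4d, which no naive array detected (at least 2.02-fold higher). Of 15 matrix metalloproteinases 4 rose and 2 fell, against 6 and 1 under common-median scaling. The falls were those of Mmp24 (-0.39, adjusted p 0.0478) and Mmp19 (adjusted p 0.0243). No DSS_WT array detected Mmp19, so its size is not given. Both falls missed 0.05 without DSS_WT 3, Naive_WT 9 or Naive_WT 11. Of 9 kallikrein 1-related peptidases 1 rose and 3 fell, with Klk1b24 at -1.12 (adjusted p 0.00106) and Klk1b9 at -1.09 (adjusted p 0.00997). The third, Klk1b8 (-0.99, adjusted p 0.0406), missed 0.05 under common-median scaling, where 2 fell. With 1 sample left out, 3 fell without DSS_WT 1 and 2 in every other such fit. Near-identical members of the kallikrein family may share probe sequence, so the level of a single one is uncertain.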
